A study of Homo sapiens with 4 samples.

Results

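Epithelial cells hold together through junctions whose parts are well known. E-cadherin, the product of CDH1, links neighbouring cells at adherens junctions and ties them to the actin cytoskeleton through catenins. Claudins and occludin form the strands of the tight junction, which seals the space between cells, and JAM-A, the product of F11R, recruits polarity proteins to it. Ovarian carcinomas often carry these proteins, and loss of E-cadherin is the classic mark of an epithelial to mesenchymal transition.

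The 9 genes described here are CDH1, EPCAM, CLDN3, CLDN4, CLDN6, CLDN7, OCLN, F11R and MAL2, out of 27196 genes tested on the array. They were chosen by name as genes of epithelial junctions and polarity, with earlier results of these data known. All 9 were measured, by 13 probes. The cells are A2780s, an established human ovarian adenocarcinoma line, and the study asked what changes in gene expression after loss of GALNT3 or of GALNT3 with GALNT6, enzymes that start O-glycosylation. Each of 4 Agilent arrays set the RNA of 1 KO clone against RNA of mock-transfected control A2780s (Ctrl): 2 arrays held GALNT3 KO clones, made with CRISPR/Cas9, and 2 held clones under the label GALNT3/T6 KO, called the GALNT3/T6-labelled arrays here. The GALNT3/T6 KO clones were derived from GALNT3 KO clones with shRNA against GALNT6 delivered by lentivirus. Viral transduction, with its further round of selection, cannot be told apart from that group unless its Ctrl was transduced too. GALNT3 KO clones were also selected with puromycin. The paper describes mock-transduced control clones with a scramble sequence, but does not say whether they served on these arrays. By the labels Ctrl carried Cy3 and the KO clone Cy5 on all 4 arrays, and the methods do not settle whether dyes were exchanged on any of them. The replicates are clones, 2 in each group, and this number of arrays limits the precision.

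One target gene went against its label. GALNT3 stood at log2 ratios of 4.80 and 5.08 on the GALNT3/T6-labelled arrays. The KO channel there, at 12.44 and 12.73, lay far above Ctrl at 7.63 and 7.65. On the GALNT3 KO arrays neither channel stood well above background for GALNT3, so its loss cannot be checked there. Ctrl stood at 6.19 and 6.30 on these, although the paper describes strong GALNT3 expression in A2780s. The cause of this contrast was not tested. GALNT6 RNA stood at -0.47 and -0.38 on the GALNT3 KO arrays and at -0.66 and -0.69 on the GALNT3/T6-labelled arrays. The paper reports more GALNT6 protein in its GALNT3 KO clones, where the RNA here was lower than Ctrl. Protein was not measured on these arrays. Since GALNT3 went against its label, the GALNT3/T6 KO group is named by that label throughout. Each direction given for this group, in the text and in the plots, is that of the RNA so labelled. With the dyes of these 2 arrays turned, every sign against Ctrl there would turn as well. The 6 genes called higher would then be lower. In the channel labelled Ctrl, F11R stood at 13.17 and 13.12 on these arrays and at 13.14 and 13.10 on the GALNT3 KO arrays. In the same channel and order MAL2 stood at 9.91 and 9.22 beside 8.33 and 9.33, and OCLN at 10.23 and 10.28 beside 9.55 and 9.72. In the KO channel of the GALNT3/T6-labelled arrays F11R stood at 14.62 and 15.07. MAL2 stood at 14.83 and 14.64 in it, and OCLN at 12.22 and 12.32. Which dye direction holds was not tested. In each channel 86.9% to 93.8% of the spots stood well above background and 0 were saturated. Over the log2 ratios of all genes tested, which do not count as replicates, r was 0.835 between the GALNT3 KO arrays, 0.917 between the other two, and 0.205 to 0.324 between arrays of different groups.

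The probes of OCLN, CLDN3, CLDN4 and CLDN7 are shown, since they give the stretch of each gene that was read. Claudins are a family of similar proteins. The longest run of bases that each of the 13 probes shared with an array probe of another gene was 12 to 16 of 60 bases. The probes were not compared with whole transcripts of related genes, so these runs do not show specificity within a family. The sequences are written 5′ to 3′ in the sense of the transcript, in lower case.
OCLN: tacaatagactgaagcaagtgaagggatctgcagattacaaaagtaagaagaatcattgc
CLDN3: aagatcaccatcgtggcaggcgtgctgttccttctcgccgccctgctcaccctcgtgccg
CLDN4: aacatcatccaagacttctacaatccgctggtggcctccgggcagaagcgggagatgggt
CLDN7: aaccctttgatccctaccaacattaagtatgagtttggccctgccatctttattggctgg
In the array design (hg19) this OCLN probe lies at chr5:68847386-68849429 on the plus strand, a span of 2044 bases for a sequence of 60, so it is split in the genome. The CLDN7 probe spans 165 bases, chr17:7163822-7163986 on the minus strand. The CLDN3 probe lies at chr7:73183978-73184037 on the minus strand and the CLDN4 probe at chr7:73245955-73246014 on the plus strand. CDH1 was read at chr16:68869214-68869273 and EPCAM at chr2:47613894-47613953, both on the plus strand. CLDN6 was read at chr16:3065255-3065314 and F11R at chr1:160966033-160966092, both on the minus strand. Whether each probe lies in a coding or an untranslated part of its exon was not analysed here.

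Each gene's signal was set against the background of its array. The floor is the lowest normalised signal among probes well above background in a channel of an array, and it lay between log2 6.47 and 6.99. Every gene was well above background in both channels on all 4 arrays. CLDN4 exceeded the floor by only 0.35 to 0.73 in Ctrl, and CDH1 by 0.64 to 0.85, so their ratios rest on weak signals. OCLN exceeded it by 2.72 to 3.73 in Ctrl, but by only 0.69 and 1.56 in the KO channel of the GALNT3 KO arrays. PTPRC and CD14, which mark leukocytes, also passed the scanner's flag on all arrays, so passing it does not show that a gene was expressed. EPCAM exceeded the floor by 1.42 to 1.61 in Ctrl. F11R exceeded it by 6.31 to 6.58.

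**Figure D1:**
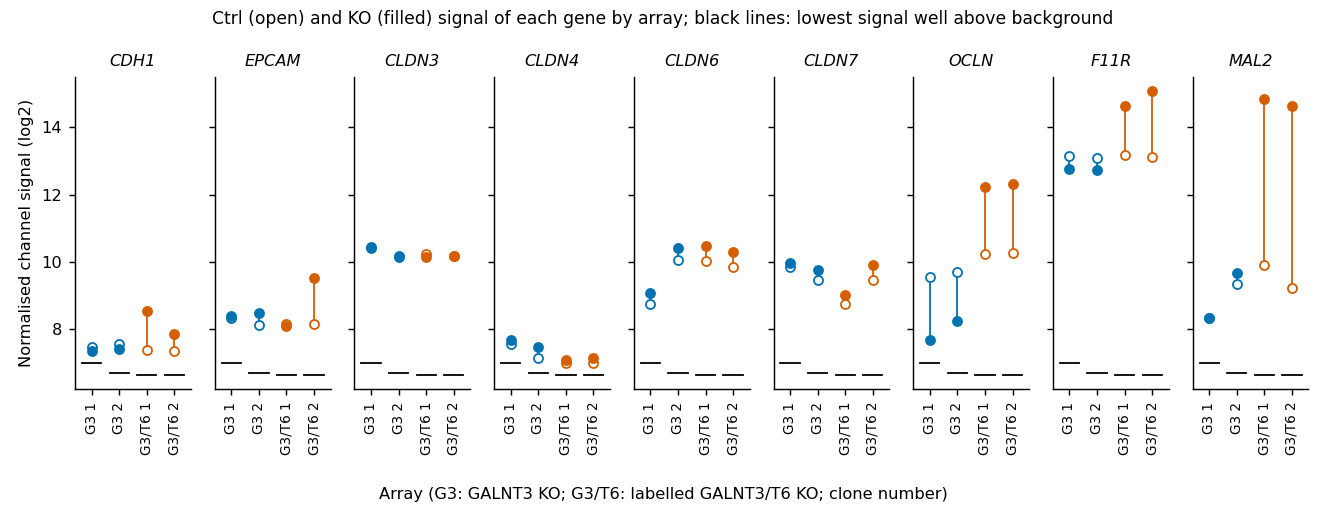
Normalised log2 signal of Ctrl (open circles) and KO (filled circles) for each of the 9 genes on the 4 arrays, GALNT3 KO in blue and the GALNT3/T6-labelled arrays in orange. The black line is the higher of the floors of both channels. The CDH1 and CLDN4 circles lie close to it, as does the OCLN KO circle of GALNT3 KO replicate 1. The MAL2 KO signals of 14.83 and 14.64 stand far above Ctrl on the GALNT3/T6-labelled arrays.

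Against Ctrl, 6 of the 9 genes were higher on the GALNT3/T6-labelled arrays and none was lower. MAL2 rose 36.0-fold, OCLN 4.05-fold, F11R 3.25-fold and CDH1 1.78-fold, and CLDN6 and CLDN7 stood 1.36-fold and 1.29-fold above Ctrl. In GALNT3 KO only OCLN passed the test, and it was 3.18-fold lower. A gene was called where limma's p, adjusted over all genes by Benjamini-Hochberg, was 0.05 or less. On this measure 24.8% of all genes tested were called higher on the GALNT3/T6-labelled arrays, set beside 6 of 9 here. A share of 23.1% were called lower, set beside 0 of 9. The 9 genes were chosen with earlier results of these data known, so these shares are no test of the set. In GALNT3 KO 6.39% of all genes were called lower, set beside 1 of 9, and 4.75% were called higher, set beside 0 of 9, with 1 of the 9 higher at an unadjusted p of at most 0.05. Of the calls over all genes in GALNT3 KO 42.7% were higher, and median centring of the arrays in place of loess moved this to 23.5%. The median log2 ratio of the 9 genes was 0.17 in GALNT3 KO and 0.65 on the GALNT3/T6-labelled arrays, beside 0.02 and 0.03 over all genes tested. In such bulk RNA, fewer cells that express a gene and less RNA in each cell cannot be told apart. Both comparisons are with Ctrl, whose own spread is left out of a test against 0. The methods name corresponding Ctrls, so whether the same Ctrl RNA served both groups is not known.

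The third comparison set the KO groups against each other. CDH1, OCLN, F11R and MAL2 stood higher in the GALNT3/T6-labelled group than in GALNT3 KO, 4 of 9 genes where 11.9% of all genes were called higher. The arrays of the groups did not overlap in 5 of the 9 genes, these 4 and CLDN6, and all 5 were higher on the GALNT3/T6-labelled arrays. Over all genes 30.0% were higher there without overlap and 31.0% lower.

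**Figure D2:**
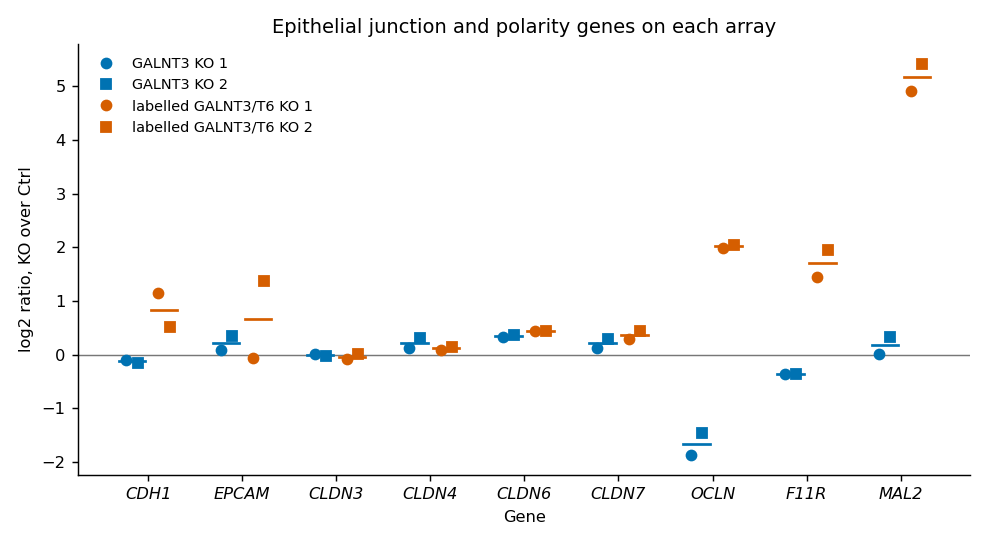
Log2 ratio of KO over Ctrl for the 9 genes on each of the 4 arrays, with the mean of each group as a bar. The arrays of the groups lie apart for CDH1, OCLN, F11R and MAL2, nearly meet for CLDN6 and overlap for the others; the EPCAM points of the group labelled GALNT3/T6 KO lie at -0.06 and 1.36.

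CDH1, E-cadherin, is measured by 1 probe printed 10 times on each array. Its log2 ratios were -0.10 and -0.15 on the GALNT3 KO arrays, and 1.15 and 0.51 on those labelled GALNT3/T6 KO. The first pair sat just below 0 and the second above it, without overlap. Over the 10 spots the SD was 0.14 and 0.23 on the GALNT3 KO arrays and 0.30 and 0.26 on the others, a technical spread within an array. The Ctrl signal stayed between 7.35 and 7.56 on all arrays, while the KO signal was 8.55 and 7.86 on the GALNT3/T6-labelled arrays. The mean there was 0.83 (SE 0.17, n = 2, adjusted p = 0.0156 from limma). In GALNT3 KO it was -0.12, with a 95% interval of -0.56 to 0.31 (adjusted p = 0.614 from limma). The difference between the groups was 0.95 (SE 0.24, adjusted p = 0.0484 from limma). That difference lost its call with median centring, at an adjusted p of 0.0804, and without GALNT3 KO replicate 1 (0.252) or replicate 2 (0.264). The change against Ctrl lost its call when the spread came from its own 2 arrays, at an adjusted p of 0.0691, the same fit as without either GALNT3 KO array. With Agilent's log ratio the mean moved from 0.83 to 1.42, and without GALNT3/T6 KO replicate 1 to 0.51, and Agilent's log ratio moved the difference from 0.95 to 1.49. Over 13 alternatives the adjusted p of the mean ran from 0.000128 to 0.368 and that of the difference from 0.000370 to 0.275.

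EPCAM encodes an adhesion molecule of epithelial membranes that binds claudins. Its log2 ratios were 0.08 and 0.34 on the GALNT3 KO arrays. On the GALNT3/T6-labelled arrays it was -0.06 in replicate 1 and 1.36 in replicate 2, so the 2 clones stood further apart than any other pair among the 9 genes. The Ctrl signal was 8.17 and 8.15 on these arrays, and the KO signal was 8.11 and 9.51. The mean was 0.65 with a 95% interval of -0.25 to 1.55 (adjusted p = 0.175 from limma), and the test was not passed. Without replicate 1 the value was 1.36 (adjusted p = 8.39e-05 from limma), and without replicate 2 it was -0.06, so the result is set by which clone is read. Each of these fits assumes that the lone clone varies like the other group, and over 13 alternatives the adjusted p ran from 8.39e-05 to 0.781. In GALNT3 KO the mean was 0.21, with an interval of -0.69 to 1.11 (adjusted p = 0.680 from limma).

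The genes closest to CDH1 and EPCAM over the 4 arrays were found by Euclidean distance between log2 ratios, among 25517 other genes that stood well above background on every array in 1 channel or both. For CDH1 they were FASTKD3 at a distance of 0.07, PUS7L at 0.10 and CHIC2 at 0.10. For EPCAM they were GDF15 at 0.36, a probe with no gene symbol, A_23_P206135, at 0.37, and FAM213B at 0.39. GDF15 stood at -0.18 and 1.32 on the GALNT3/T6-labelled arrays, the same order of the clones as EPCAM. None of these is a junction gene of the lists used here.

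Among the 4 claudins measured as members of the set, changes were small. CLDN3 and CLDN4 are barrier claudins and receptors of Clostridium perfringens enterotoxin, CLDN7 is the claudin that binds EPCAM, and CLDN6 is an oncofetal claudin. CLDN3 had log2 ratios of 0.01, -0.03, -0.09 and 0.00 in GALNT3 KO 1 and 2 and in GALNT3/T6 KO 1 and 2. All 4 lay close to 0, at Ctrl signals from 10.17 to 10.42, well above the floor. Its 95% intervals were -0.22 to 0.20 in GALNT3 KO and -0.26 to 0.17 on the GALNT3/T6-labelled arrays, within which a change could still lie. The sign of its mean depends on the scaling, and Agilent's log ratio gave 0.31 and 0.23.

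CLDN4 had log2 ratios of 0.13 and 0.32 on the GALNT3 KO arrays and of 0.09 and 0.14 on the others, so the groups overlap. Its means of 0.23 and 0.11 did not pass the test (adjusted p = 0.151 and 0.334 from limma). The intervals were -0.01 to 0.46 and -0.12 to 0.35, on a signal near the floor.

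CLDN6 was at 0.32 and 0.37 on the GALNT3 KO arrays and at 0.44 and 0.45 on those labelled GALNT3/T6 KO. All 4 arrays lay above 0. By the labels KO was Cy5 on each of them, so a dye effect of the probe cannot be told apart from a change against Ctrl. The mean of 0.44 in the latter was called (SE 0.08, adjusted p = 0.0107 from limma), and the mean of 0.35 in GALNT3 KO was not (adjusted p = 0.0583 from limma). The difference between the groups was 0.10, with an interval of -0.19 to 0.39 (adjusted p = 0.640 from limma). With Agilent's log ratio the value on the GALNT3/T6-labelled arrays was 0.18 (adjusted p = 0.167) and with median centring 0.34 (adjusted p = 0.0634), so the call was lost in both. Its adjusted p ran from 0.00813 to 0.216 over 13 alternatives.

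CLDN7 was at 0.12 and 0.30 on the GALNT3 KO arrays and at 0.29 and 0.44 on the others, with overlap. Every array lay above 0, so a dye effect cannot be told apart here either. Its mean of 0.36 on the GALNT3/T6-labelled arrays was called (SE 0.09, adjusted p = 0.0329 from limma). That call did not hold with Agilent's log ratio, which gave 0.02 (adjusted p = 0.850), with median centring (0.0824), with the spread of its own arrays (0.0806) or without GALNT3/T6 KO replicate 2 (0.126). Its adjusted p ran from 0.0275 to 0.850 over 13 alternatives. The mean in GALNT3 KO was 0.21, with an interval of -0.04 to 0.46 (adjusted p = 0.189 from limma). The difference was 0.16, with an interval of -0.20 to 0.51 (adjusted p = 0.521 from limma).

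OCLN, occludin, is a tight junction protein with 4 membrane-spanning segments, and with the dyes as labelled it was called lower in GALNT3 KO and higher on the GALNT3/T6-labelled arrays. Its brightest probe had log2 ratios of -1.87 and -1.47 on the GALNT3 KO arrays, and of 1.99 and 2.05 on the GALNT3/T6-labelled arrays. The KO signal was 7.68 and 8.25 in the first pair, below Ctrl at 9.55 and 9.72. In the second pair it was 12.22 and 12.32, above Ctrl at 10.23 and 10.28. The mean was -1.67 (SE 0.12, n = 2, adjusted p = 0.0117 from limma) in GALNT3 KO and 2.02 (SE 0.12, adjusted p = 0.000492) on the GALNT3/T6-labelled arrays. The groups differed by 3.69, with a 95% interval of 3.23 to 4.15 (adjusted p = 0.000634 from limma). With the dyes of the GALNT3/T6-labelled arrays turned, OCLN would stand at -2.02 there, lower in both groups, and the difference would be -0.35 (adjusted p = 0.153 from limma). Without GALNT3 KO replicate 1 or 2 the lower call in GALNT3 KO was lost, at values of -1.47 and -1.87 and adjusted p-values of 0.281 and 0.338, in fits where no gene at all was called in GALNT3 KO. Over 13 alternatives the adjusted p in GALNT3 KO ran from 4.72e-05 to 0.346 and the mean from -2.02 to -1.47.

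The 3 OCLN probes lie at separate positions and moved in the same direction. The probe shown above had log2 ratios of -1.55 and -1.54 on the GALNT3 KO arrays and of 1.73 and 1.78 on those labelled GALNT3/T6 KO. The probe furthest downstream had -1.87 and -2.13, and 1.65 and 1.75. In the KO channel of the GALNT3 KO arrays the probe shown exceeded the floor by only 0.37 and 0.23. The probe furthest downstream exceeded it there by 1.18 and 0.98, so these ratios rest on weak signals. All 6 values in GALNT3 KO were negative and all 6 in the other group positive.

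F11R, the immunoglobulin-like adhesion molecule JAM-A, had nearly the same Ctrl signal on all arrays, from 13.10 to 13.17. Its log2 ratios were -0.37 and -0.36 on the GALNT3 KO arrays, and 1.45 and 1.95 on the GALNT3/T6-labelled arrays, which do not overlap. The mean on the latter was 1.70 (SE 0.14, adjusted p = 0.00108 from limma), and the groups differed by 2.06 (SE 0.20, adjusted p = 0.00330 from limma). The mean in GALNT3 KO was -0.37, with an interval of -0.73 to -0.0028, and it did not pass after adjustment (adjusted p = 0.139 from limma). When only the spread of the GALNT3 KO arrays was used it passed, at an adjusted p of 0.0185. The difference lost its call without GALNT3 KO replicate 1 (0.0709) or replicate 2 (0.0668), at a size of 2.06 and 2.07. Over 13 alternatives its adjusted p ran from 8.76e-06 to 0.119, and that of the mean in GALNT3 KO from 0.0185 to 0.549. The other F11R probe gave -0.39 and -0.14, and 0.94 and 1.53, the same directions at smaller sizes.

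**Figure D3:**
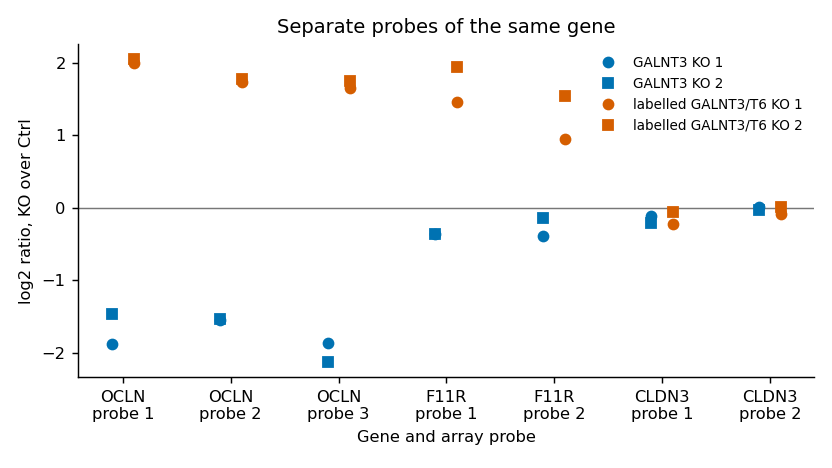
Log2 ratio of KO over Ctrl for the 3 OCLN probes, the 2 F11R probes and the 2 CLDN3 probes, on each array. The OCLN and F11R probes lie below 0 on the GALNT3 KO arrays and above 0 on the GALNT3/T6-labelled arrays, and the CLDN3 probes lie between -0.23 and 0.01 on all arrays.

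MAL2 encodes a membrane protein of the apical transport route of polarised epithelial cells. Its log2 ratios were 0.02 and 0.33 on the GALNT3 KO arrays, and 4.92 and 5.42 on the GALNT3/T6-labelled arrays. The KO signal was 8.35 and 9.66 in the first pair and 14.83 and 14.64 in the second. The Ctrl signal itself ranged from 8.33 to 9.91 over the 4 arrays, the widest range of the 9 genes. The mean was 5.17 (SE 0.16, adjusted p = 0.000108 from limma) on the GALNT3/T6-labelled arrays and 0.17, with an interval of -0.24 to 0.59 (adjusted p = 0.465 from limma), in GALNT3 KO. The groups differed by 5.00 (SE 0.22, adjusted p = 0.000553 from limma). The paper measured by PCR a panel of genes picked from these arrays, and it lists primers for MAL2. Being picked from the arrays adds no evidence to the size here, and the PCR values were not used.

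The wider junction was read from lists of named genes, given as counts and medians. The lists were chosen with earlier results of these data known, so their shares are no test of the lists. Where a gene stood above 0 in both groups, a dye effect of its probe cannot be told apart from a change. Calls between the groups, with the dyes as labelled, are therefore given too. Over all genes 11.9% were called higher on the GALNT3/T6-labelled arrays than in GALNT3 KO and 11.9% lower. Over all genes tested 24.8% were called higher and 23.1% lower on the GALNT3/T6-labelled arrays, and 4.75% and 6.39% in GALNT3 KO. Of 25 other tight junction genes, 10 (40%) were higher and 3 (12%) lower on the GALNT3/T6-labelled arrays, with a median log2 ratio of 0.25. Between the groups 7 (28%) were called higher on the GALNT3/T6-labelled arrays and 3 (12%) lower. TJP3, at means of 0.35 in GALNT3 KO and 0.36 on the GALNT3/T6-labelled arrays, was not among these. In GALNT3 KO 2 (8%) were lower, near the share of all genes, and 0 higher, with a median of 0.12. CLDN1, a barrier claudin, rose by log2 3.70 and 3.94, and CXADR, an adhesion receptor of the JAM type, by 2.78 and 3.08 on the GALNT3/T6-labelled arrays. CXADR was lower in GALNT3 KO, at -0.70 and -0.58. CLDN23 had the same pattern of -0.55 and -0.57 against 1.04 and 1.33, and MARVELD2, tricellulin, reached 1.60 and 2.35. The lower genes were SYMPK (-2.12 and -1.56), which also serves in mRNA polyadenylation, and the JAM family members JAM3 (-1.39 and -1.11) and JAM2 (-1.11 and -1.19). F11R thus rose where both other JAM genes fell.

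Of 15 other adherens junction genes, 6 (40%) were higher and 4 (26.7%) lower on the GALNT3/T6-labelled arrays, with a median of -0.20. The share lower there was near the 23.1% of all genes. Between the groups 1 (6.67%) was called higher on the GALNT3/T6-labelled arrays and 1 (6.67%) lower. In GALNT3 KO 1 was higher (6.67%, beside 4.75% of all genes) and 3 were lower (20%, beside 6.39%). CDH2, N-cadherin, was higher in both groups, at 2.89 and 2.18 in GALNT3 KO and at 2.40 and 2.68 on the GALNT3/T6-labelled arrays. CDH1 therefore rose beside CDH2 in the latter. NECTIN3, on the array under its older name PVRL3, was at -1.28 and -0.99 against 2.64 and 2.54, and CDH3, P-cadherin, was at 0.99 and 2.06 on the GALNT3/T6-labelled arrays. NECTIN3 was not well above background in the KO channel of 1 GALNT3 KO array, so its ratio there is not exact. ACTN4, which crosslinks actin, was higher there, at 0.37 and 0.96. NECTIN2 was lower in both groups, by -1.23 and -1.67 and by -1.15 and -0.71. JUP, plakoglobin, was lower in GALNT3 KO at -0.56 and -0.49. CTNNB1, beta-catenin, fell to -1.57 and -0.70, NECTIN1 to -0.72 and -0.67, and CTNNA2, an alpha-catenin, to -0.34 and -0.22 on the GALNT3/T6-labelled arrays. CTNNA2 was at -0.33 and -0.25 on the GALNT3 KO arrays, where it was not called.

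Of 14 desmosome and gap junction genes, 9 (64.3%) were higher and 2 (14.3%) lower on the GALNT3/T6-labelled arrays, with a median of 0.37. The shares of all genes there were 24.8% and 23.1%. Between the groups 6 (42.9%) were called higher on the GALNT3/T6-labelled arrays and 1 (7.14%) lower. GJB2, at means of 0.30 in GALNT3 KO and 0.31 on the GALNT3/T6-labelled arrays, was not among these. In GALNT3 KO 1 was higher (7.14%, beside 4.75% of all genes) and 2 were lower (14.3%, beside 6.39%). PKP3 rose by 2.27 and 2.15, DSP, desmoplakin, by 2.25 and 2.15, DSG2 by 1.64 and 1.98, and PKP2 by 1.58 and 1.83. DSP was the gene called higher in GALNT3 KO, at 0.54 and 0.51. GJA1, connexin 43, fell to -2.79 and -2.90. In GALNT3 KO the fall of DSC3 was at least 2.20-fold (adjusted p = 0.0233 from limma), a bound since neither array showed its KO channel well above background, and that of DSG3 on the GALNT3/T6-labelled arrays at least 1.85-fold (adjusted p = 0.00228 from limma). DSG3 was also called lower in GALNT3 KO, at -0.65 and -0.62, of which 1 is not exact since its KO channel was dim. Such a bound divides the bright channel by whichever is higher, the floor or the dim signal, on channel values after loess and Aquantile, and dye bias can affect it.

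Of 17 polarity complex genes, 7 (41.2%) were higher and 4 (23.5%) lower on the GALNT3/T6-labelled arrays, with a median of 0.15. The share lower there was near the 23.1% of all genes. Between the groups 4 (23.5%) were called higher on the GALNT3/T6-labelled arrays and 1 (5.88%) lower. In GALNT3 KO 1 (5.88%) was higher and 1 (5.88%) lower, near the 4.75% and 6.39% of all genes. Within the PAR complex, which JAM-A recruits, PARD6B rose by 2.44 and 2.06 and PARD6A by 0.88 and 1.49, while PARD3 fell to -1.48 and -1.19 and PARD6G to -0.59 and -0.67. PRKCI, an atypical protein kinase C, was higher in both groups, at 0.78 and 0.57 and at 0.56 and 0.58, and its relative PRKCZ was at 0.44 and 0.75 on the GALNT3/T6-labelled arrays. PALS1 (older name MPP5) was at -1.61 and -0.55 and SCRIB at -1.33 and -0.51 there. On the GALNT3 KO arrays PALS1 was at -0.95 and -1.26 and SCRIB at -0.32 and -0.78, not called, and neither differed between the groups by the test. LLGL2 was lower in GALNT3 KO, at -0.41 and -0.55.

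Of 15 apical membrane and epithelial traffic genes, 13 were tested. On the GALNT3/T6-labelled arrays 11 of these (84.6%) were higher and none lower, with a median of 0.85. The shares of all genes there were 24.8% and 23.1%. Among the 11 was SPINT1, at a mean of 1.31. It was not well above background on the GALNT3 KO arrays and was tested only through the group where it was higher, so its call is no evidence about the list. Between the groups 6 (46.2%) were called higher on the GALNT3/T6-labelled arrays and 0 lower. In GALNT3 KO 1 was lower (7.69%, near the 6.39% of all genes) and 0 higher. The highest means on the GALNT3/T6-labelled arrays were those of SPINT2, a protease inhibitor, at 2.97 and 3.28, MYO5B, a motor of apical recycling, at 3.02 and 3.02, AP1M2, an epithelial adaptor subunit, at 2.21 and 1.91, and SYTL2, a Rab27 effector, at 1.52 and 3.40. EZR, ezrin, linker of membrane and actin, was at -0.86 and -1.06 in GALNT3 KO and at 1.29 and 2.04 on the GALNT3/T6-labelled arrays. MYO5B stood at -0.07 and -0.39 on the GALNT3 KO arrays and was not well above background in the KO channel of 1 of them. MAL and RAB25 were not tested.

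Of 10 epithelial regulators, transcription and splicing factors of the epithelial state, 2 were higher on the GALNT3/T6-labelled arrays, a share near the 24.8% of all genes called higher there. These were ELF3 at 1.71 and 1.81 and GRHL1 at 0.35 and 0.40. GRHL2, GRHL3, OVOL1, OVOL2, ESRP1, ESRP2, EHF and KLF4 were not called there. In GALNT3 KO limma called 0 of the 10, and 1, GRHL2 at 0.33 and 0.21, passed at an unadjusted p of at most 0.05, with means from -0.20 to 0.27 over the list. On the GALNT3 KO arrays neither channel stood well above background for ELF3, so it was tested only through the group where it was higher.

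The 5 transcriptional repressors, which bind E-box sequences in the CDH1 promoter, were all called on the GALNT3/T6-labelled arrays, in opposite directions. Over all genes tested 24.8% were called higher there and 23.1% lower. SNAI1 stood at 2.77 and 2.64 and ZEB2 at 2.54 and 2.89, so both were higher. SNAI2 stood at -2.92 and -2.69, TWIST1 at -2.11 and -2.06 and ZEB1 at -0.38 and -0.51, so these were lower. In GALNT3 KO limma called 0 of the 5, with means from -0.39 to 0.23, and 2 passed at an unadjusted p of at most 0.05.

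The RefSeq promoter windows (GRCh38.p14, 250 bases before to 50 after a start) hold 7 windows for 5 of the 9 genes, CLDN3, CLDN4, CLDN6, CLDN7 and OCLN. CAGGTG, an E-box that SNAI and ZEB proteins bind, was searched on both strands, with AACCGG, a grainyhead motif, and GGGCGG, an SP1 motif. CAGGTG was found in 5 of the 7 windows, where 20.6% of 35116 windows hold it, AACCGG in 2 (7.23% of all) and GGGCGG in 5 (45.0% of all). The windows with CAGGTG were those of CLDN3, CLDN6, both of OCLN and 1 of CLDN7, and CLDN4 held none. The stretch before the first OCLN start and the one before the second CLDN7 start are shown with CAGGTG or its reverse complement in capitals, since OCLN was called in both groups and that CLDN7 window holds 5 matches.
OCLN: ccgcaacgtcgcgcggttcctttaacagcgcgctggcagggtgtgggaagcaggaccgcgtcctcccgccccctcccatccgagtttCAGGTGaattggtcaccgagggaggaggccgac
CLDN7: tactCAGGTGcgcccCACCTGtcc
The OCLN stretch is chr5:69492427-69492546 on the plus strand and the CLDN7 stretch chr17:7262479-7262502 on the minus strand. A match describes the letters in these windows and is neither a bound site nor a cause.

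Markers of cell types were read beside the junction genes, with 24.8% of all genes tested called higher on the GALNT3/T6-labelled arrays and 23.1% lower. Of 6 ovarian carcinoma markers, 4 were higher on the GALNT3/T6-labelled arrays, PAX8, WT1, KRT7 and KRT18, and WFDC2 was lower. WFDC2 was the 1 marker higher in GALNT3 KO, and MUC16 was called in neither. The log2 of the summed signal of these 6 markers was 13.98 and 13.88 in GALNT3 KO, beside 12.77 to 13.93 in Ctrl. In the KO channel labelled GALNT3/T6 KO it was 18.80 and 18.57. Such a sum is led by the brightest genes and does not show a rise of every marker. KRT18, a keratin of simple epithelia, stood at 5.41 and 5.95 on the GALNT3/T6-labelled arrays, where MAL2, OCLN and F11R were also higher. On the GALNT3 KO arrays KRT18 stood at 0.74 and 0.44 and was not called, while OCLN was lower there. Of 7 fibroblast or mesothelium markers, 3 were higher (COL1A1, CALB2 and MSLN) and 3 lower (COL1A2, COL3A1 and LUM) on the GALNT3/T6-labelled arrays, with summed KO signals of 14.10 and 15.10 beside 15.32 and 15.18 in GALNT3 KO. Of 4 leukocyte markers CD68 was higher and CD3E lower, with summed KO signals of 12.01 and 12.34 beside 11.82 and 11.57, and of 2 endothelial markers tested VWF was higher, with sums of 9.53 and 10.03 beside 9.61 and 9.17. The part of these markers in the results on the junction genes was not tested.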

How the data were processed

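On 4 arrays with 2 colours, all on 1 slide, 2 clones of GALNT3 KO and 2 of GALNT3/T6 KO were each set against Ctrl. The authors deposited scanner output: spot intensities in each channel, background intensities, flags (other values, 0 or 1) and log10 ratios of Cy5 over Cy3 from Agilent Feature Extraction (8.5.1.1 per the labels, 10.7.3.1 per the file headers). The deposited value table holds the same log10 ratios rounded. Dye directions follow the labels; the methods speak of reverse-color labelling, from which a swap between arrays can be neither read nor dismissed.

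Intensities were background-corrected (normexp, offset 50) and normalized by loess with control and non-uniform spots at weight 0, in limma 3.58.1 (R 4.3.3). Spots of a probe were averaged. The brightest probe stood for a gene, out of the probes that both arrays of a group showed well above background in 1 channel or both. Well above background means a share of at least 0.5 of a probe's spots. A gene could thus pass through 1 group alone, as SPINT1 and ELF3 did. limma fitted all 4 arrays with a mean per group, and p-values were adjusted over 27196 genes. The fit was tested on simulated data. No Ctrl sample was hybridized against Ctrl, so with the dyes as labelled a dye effect of a probe cannot be told apart from a change. Nothing says that the clones were cultured or extracted more than once, so p-values measure the spread between these clones.

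Named genes are all 9 members, up to 4 genes called in each direction per list and comparison with Ctrl, all regulators and repressors, and the 3 genes nearest to CDH1 and EPCAM. The members and lists were chosen with earlier results of these data known. Older symbols were matched through RefSeq. Alternatives covered background, normalization, probe choice, filter, spread, test, arrays left out and the dye direction of the GALNT3/T6-labelled arrays. Probe positions are those of the array design. No protein sequence was used, and promoter sequence was read from RefSeq.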

Additional observations from a re-analysis of the deposited data

Results flagged for a closer look

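Among the 9 genes, 4 differed between the KO groups by the test of the difference itself, from limma over all genes, and each was higher on the GALNT3/T6-labelled arrays. The log2 difference was 5.00 for MAL2, 3.69 for OCLN, 2.06 for F11R and 0.95 for CDH1.

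Of the list genes named, 28 differed between the groups by the same test. Most were named because they were called against Ctrl on these same arrays, so the count is no result about the lists. Over all 99 list genes tested 27 (27.3%) were higher in the GALNT3/T6-labelled group and 8 (8.08%) lower, beside 11.9% and 11.9% of all genes. These lists were chosen with earlier results of these data known, so the shares are no test of them. In the tight junction list the log2 difference (GALNT3/T6 KO minus GALNT3 KO) was 3.57 for CXADR, 3.64 for CLDN1, 1.74 for CLDN23 and 1.62 for MARVELD2, and it was -1.65 for SYMPK, -1.39 for JAM3 and -0.88 for JAM2. In the adherens junction list it was 3.73 for NECTIN3 (2.58 to 5.29 over 13 alternatives) and -1.01 for NECTIN1. In the desmosome and gap junction list it was 1.67 for DSP, 2.64 for DSC3, 1.95 for PKP3, 1.52 for DSG2, 1.34 for PKP2 and -2.79 for GJA1. The DSC3 value is not exact, since DSC3 was not well above background in the KO channel of the GALNT3 KO arrays, and the KO channels differed at least 5.80-fold. In the polarity list it was 2.38 for PARD6B, 1.10 for PARD6A, 0.63 for LLGL2 and -1.07 for PARD3. Among apical membrane genes it was 3.25 for MYO5B, 2.80 for SPINT2, 2.62 for EZR and 2.37 for AP1M2. Among the transcription factors it was 2.51 for SNAI1, 2.48 for ZEB2, 1.58 for ELF3, -2.41 for SNAI2 and -1.73 for TWIST1. ELF3 was not well above background on the GALNT3 KO arrays and was tested only through the group where it was higher. Its KO channels differed at least 3.10-fold. The values of NECTIN3, MYO5B and CLDN1 are not exact either, since on 1 GALNT3 KO array the KO channel of NECTIN3 and MYO5B and the Ctrl channel of CLDN1 were not well above background.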

How the results depend on the processing

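With 2 clones a group the calls depend on how the spread is estimated more than on the background correction. Of the 9 genes, 1 was called in GALNT3 KO, 6 on the GALNT3/T6-labelled arrays and 4 between the groups. When the spread came from a group's own arrays, 3 were called in GALNT3 KO (F11R lower and CLDN6 higher were added). The methods' t-test after Benjamini-Hochberg adjustment called 0 members in each comparison (2, 3 and 3 at an unadjusted p of at most 0.05), and at the study's criterion it called 0 in GALNT3 KO and 2 on the GALNT3/T6-labelled arrays. Leaving out 1 array gave 0 to 3 members in GALNT3 KO, 4 to 7 on the GALNT3/T6-labelled arrays and 2 to 5 between the groups. Of the 99 list genes tested, 12, 63 and 35 were called. In GALNT3 KO this moved to 4 with Agilent's log ratio, the deposited value table and median centring, to 37 with the spread of its own arrays, and to 0 with the t-test after adjustment (10 unadjusted) or 1 at the study's criterion. On the GALNT3/T6-labelled arrays it moved to 41 with own spread, 0 with the t-test (32 unadjusted) and 21 at the study's criterion, and between the groups to 0 with the t-test (32 unadjusted). Leaving out 1 array gave 0 to 37, 41 to 59 and 15 to 49 list genes. The 0 of 9 and 0 of 99 in GALNT3 KO came on leaving out either of the GALNT3 KO arrays, and the 3 and 37 on leaving out either of the GALNT3/T6-labelled arrays. The cause of these moves was not tested.

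Over all genes, 3031 were called in GALNT3 KO, beside 581 with Agilent's log ratio, 584 with the value table, 9438 with own spread and 0 with the t-test after adjustment. On the GALNT3/T6-labelled arrays 13012 were called, beside 8319 with own spread, 8652 at the study's criterion with limma and 0 with the adjusted t-test. Between the groups 6449 were called, beside 35 with the adjusted t-test.

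With the dyes as labelled, no value called among the 9 genes changed its sign under an alternative, and signs turned only for values that were not called. CLDN3 turned in GALNT3 KO with normexp offset 0 (0.0015), Agilent's log ratio (0.31) and the value table (0.31), and leaving out 1 array gave -0.032 to 0.013. On the GALNT3/T6-labelled arrays CLDN3 turned with Agilent's log ratio (0.23) and the value table (0.23), and leaving out 1 array gave -0.090 to 0.0031. Its difference ran from -0.081 to 0.013 without 1 array. EPCAM ran from -0.055, without GALNT3/T6 KO replicate 2, to 1.36, without replicate 1, and its difference from -0.27 to 1.15. The differences of CLDN6 and CLDN7 turned with Agilent's log ratio (-0.024 and -0.037) and the value table (-0.024 and -0.037).

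Since GALNT3 went against its label, the dye direction of the GALNT3/T6-labelled arrays was also turned for the 9 genes, an alternative chosen after seeing the data and left out of the ranges over 13 alternatives. Against Ctrl the means then were -0.83 for CDH1, -0.65 for EPCAM, 0.044 for CLDN3, -0.11 for CLDN4, -0.44 for CLDN6, -0.36 for CLDN7, -2.02 for OCLN, -1.70 for F11R and -5.17 for MAL2, with the same 6 called. Between the groups 4 were called, all lower, CLDN6 (-0.79), CLDN7 (-0.57), F11R (-1.33) and MAL2 (-5.34), while CDH1 (-0.71), EPCAM (-0.87), CLDN3 (0.053) and OCLN (-0.35) were not.

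The clone numbers are shared by the groups, but nothing says that they pair the clones, and the deviations of clones with the same number correlated at -0.24. With the clone number as a replicate block, 3 members were called between the groups, since CDH1 moved to an adjusted p of 0.0599, and 4736 genes in all. All arrays lay on 1 slide and came from 1 scan, so no block for slide or scan could be fitted. CLDN4 and CDH1 lay near the floor in Ctrl, and OCLN in the KO channel of the GALNT3 KO arrays, so signal limits these ratios.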
